A study of Mus musculus with 2 samples.

Results

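The mouse genes named Zfp followed by a number form the largest of the zinc finger gene families compared here, and 191 of them were expressed in iNKT cells (invariant natural killer T cells) of the thymus at stage 1 of their development. They were chosen by name and by level: a symbol made of Zfp and a number, and a mean of at least 1 FPKM over both libraries. FPKM, fragments per kilobase of transcript scaled by library size, corrects for transcript length and depth. The name rule matched 321 of the 16386 genes in the tables, and the level rule kept 191 of these. Since the level rule used both libraries, the counts and medians over the members given here are descriptions.

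The mice were C57BL/6 animals 5 weeks old, and the cells were sorted from fresh thymus. There was 1 library from Uhrf1 KO cells and 1 library from wild-type (WT) cells, and the labels name no drug or stimulus for either. Uhrf1 binds hemimethylated DNA and guides Dnmt1, which copies methylation marks, to new DNA strands. How Uhrf1 was deleted, in which cells, and how many mice went into each library is not stated in the sources used here. With 1 library per genotype the differences rest on no replicates, and no p-value is given.

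Most proteins of this group carry arrays of C2H2 fingers, short folds held by a zinc ion that each contact a few bases of DNA. Many also carry a KRAB box, which recruits the corepressor Trim28 and through it the H3K9 methyltransferase Setdb1, HP1 proteins and histone deacetylases. KRAB zinc finger proteins are best known in mouse embryos and embryonic stem cells for silencing endogenous retroviruses and guarding imprinted genes, and their genes lie in tandem clusters made by duplication.

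Reads on genes numbered 12189849 in the KO library and 26005822 in the WT library. The members took 86441 reads in KO cells, with a median of 245 a gene, and 127154 reads in WT cells, with a median of 429 a gene. Uhrf1 stood at 0.626 FPKM in KO cells and 35.3 FPKM in WT cells. Zbtb16, the transcription factor that defines the iNKT lineage, stood at 41.9 FPKM in KO cells and 114 FPKM in WT cells. Markers of other cells moved with the genotype. Of 9 myeloid and dendritic markers found 7 rose, with a summed level of 3092 FPKM in KO cells and 326 FPKM in WT cells and Itgax at 0 in both. Of 7 erythroid markers 5 rose, with sums of 1697 FPKM in KO cells and 358 FPKM in WT cells. Of 8 naive T cell markers 6 rose and 1 fell, with sums of 1601 FPKM in KO cells and 492 FPKM in WT cells. Of 8 stromal markers 4 rose and 1 fell, with sums of 77.9 FPKM in KO cells and 12.3 FPKM in WT cells; Epcam, Krt5 and Krt8 were at 0 in KO cells and Krt8 in WT cells. Of 9 genes listed for iNKT cells and their stages, Cd24a and Cd44 among them, 1 rose and 5 fell. Their sums were 590 FPKM in KO cells and 1016 FPKM in WT cells, and none was at 0. Of 8 double-positive thymocyte markers 5 fell, with sums of 546 FPKM in KO cells and 440 FPKM in WT cells. Of 5 B cell markers none rose or fell, with Ms4a1 and Pax5 at 0 in both libraries, and of 5 NK cell markers found 1 rose and 2 fell, with sums of 3.57 FPKM in KO cells and 49.9 FPKM in WT cells and Prf1 at 0 in both. The part of these markers' cells in the values below was not tested, and in a bulk library fewer cells of a type cannot be told apart from less RNA per cell.

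The expressed Zfp genes moved in both directions in similar numbers. A gene is said here to have risen or fallen when log2((KO FPKM + 1) / (WT FPKM + 1)), called the log2 ratio below, was at least 1 or at most -1. Of the 191 members 54 rose (28.3%) and 52 fell (27.2%), while 85 did neither. Among all 9955 genes at a mean of at least 1 FPKM, 21.3% rose, 23.6% fell and 44.9% did either. The share called is higher for genes of low level, and most Zfp genes are low. At a mean of 1 to 5 FPKM 59.3% of 108 members were called, against 61.1% of all genes at that level. At 5 to 25 FPKM 52.9% of 70 members were called, against 47.3% of all genes. At 25 to 100 FPKM 33.3% of 12 members were called, against 32.3% of all genes. The share called among members was therefore near that of other genes of the same level. At 1 to 5 FPKM 30 members rose and 34 fell, where 23.5% of all genes rose and 37.6% fell, while at 25 to 100 FPKM 4 members rose and 0 fell, where 19.3% of all genes rose and 13.1% fell. These differences in direction were not tested.

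The median log2 ratio of the members was 0.14, with quartiles of -1.09 and 1.11, beside a median of -0.0048 over all genes with quartiles of -0.92 and 0.83. The SD was 1.66 over members and 1.58 over all genes. On the scaled counts the members' median log2 fold was 0.17 with genes at 0 reads set at their bound, as explained below. The members' summed level was 1835 FPKM in KO cells and 1399 FPKM in WT cells. Zfp706 alone gave 203 FPKM of the KO sum and 21.8 FPKM of the WT sum. Without it the sums were 1632 FPKM in KO cells and 1378 FPKM in WT cells. The summed level thus stood higher in KO cells with or without Zfp706, whereas fewer members reached 1 FPKM there, 152 in KO cells against 165 in WT cells. Of the 16386 genes in the tables, 8884 reached it in KO cells and 9504 in WT cells. Both libraries shared 126 of the members, 26 (13.6%) reached 1 FPKM in KO cells alone, where 8.34% of all 9955 measured genes did, and 39 (20.4%) in WT cells alone, where 12.8% did. These shares of all genes were not matched by level, and the members lie lower: 108 of 191 stood at 1 to 5 FPKM, beside 2943 of the 9955 genes. Under a rescaling of the libraries to the same upper quartile the median over members was -0.02 and that over all genes -0.18, with 46 members higher and 55 lower. With a pseudocount of 5 in place of 1, which weighs low genes less, 24 rose and 18 fell.

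**Figure D1:**
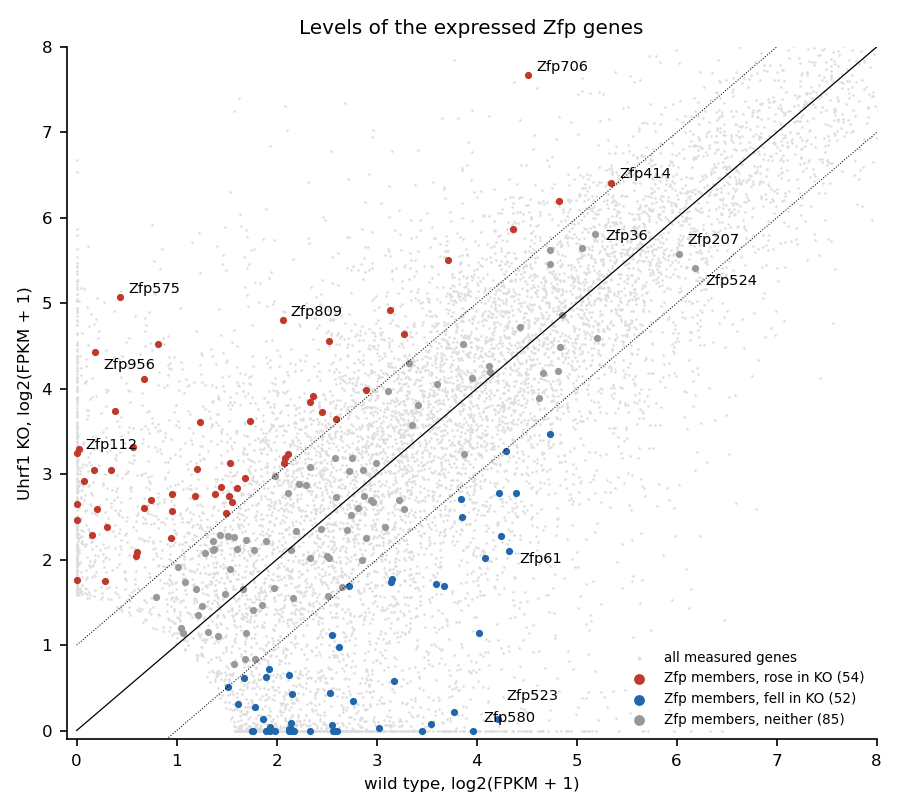
Level of each gene in KO cells (vertical axis) against WT cells (horizontal axis), both as log2(FPKM + 1), for all measured genes (light grey) and for the 191 Zfp members (colours give 54 that rose, 52 that fell and 85 in neither group). The solid line marks equal levels and the dotted lines a log2 ratio of 1 in size; both axes stop at 8, and members lie on both sides of the diagonal, with Zfp706 the highest in KO cells.

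The plot of levels shows the members spread along both axes, with a row of genes at 0 in KO cells along the bottom. A fold below is the ratio of the deposited scaled counts, with a 95% exact (Clopper-Pearson) interval from the reads. The interval treats reads as independent and covers no difference between mice or libraries. Reads copied by PCR and not tagged are no independent sample of molecules, so it can be too narrow even for counting error. By that measure 177 of 191 intervals (92.7%) left out a fold of 1, and over all measured genes 91.5% did.

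The 13 members with fewer than 2 C2H2 fingers, among them proteins that act on RNA and ribosomes, included 4 that rose and 4 that fell. That is 30.8% each way, where 21.3% of all measured genes rose and 23.6% fell. The summed level of the 13 members was 389 FPKM in KO cells and 189 FPKM in WT cells, and their median log2 ratio was -0.24. Without Zfp706 the sums were 186 FPKM in KO cells and 168 FPKM in WT cells. Zfp706 (chromosome 15, 36997027 to 37007402 in GRCm38.p6) encodes a protein of 76 residues with 1 C2H2 finger that in mouse embryonic stem cells restrains Klf4 and so favours exit from self-renewal. It stood at 203 FPKM in KO cells and 21.8 FPKM in WT cells, the highest level of any member in KO cells. Its fold was 9.92 (95% interval 9.60 to 10.3), from 20467 KO reads and 4402 WT reads. Zfp598, the ubiquitin ligase that marks collided ribosomes, rose to 44.5 FPKM in KO cells against 12.1 FPKM in WT cells, a fold of 3.37 (3.08 to 3.70). Zfp750, a factor of epidermal differentiation, stood at 8.80 FPKM in KO cells against 0.0195 FPKM in WT cells, but its row shares a locus with Tbcd and B3gntl1, and where strand is not used the reads of overlapping genes cannot be told apart.

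Other abundant members with roles in RNA or ribosomes did not pass the rule. Zfp36, also called tristetraprolin, has 2 CCCH fingers and speeds the decay of cytokine mRNAs with AU-rich elements. It stood at 55.3 FPKM in KO cells and 35.4 FPKM in WT cells, a log2 ratio of 0.63 that did not pass the size rule. Its relatives Zfp36l1, at 44.7 FPKM in KO cells and 46.4 FPKM in WT cells, and Zfp36l2, at 91.7 FPKM in KO cells and 80.4 FPKM in WT cells, differed less. Zfp593 and Zfp622, whose yeast counterparts work in the maturation of the large ribosomal subunit, were both lower in KO cells without passing the rule. Zfp593 stood at 17.5 FPKM in KO cells and 27.2 FPKM in WT cells, and Zfp622 at 21.5 FPKM in KO cells and 27.4 FPKM in WT cells. Zfp330 was nearly equal, at 28.1 FPKM in KO cells and 27.8 FPKM in WT cells.

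RNA-associated members that fell included Zfp326 and Zfp346. Zfp326 is a subunit of the DBIRD complex, which couples elongation to splicing, and stood at 5.88 FPKM in KO cells and 17.7 FPKM in WT cells, a log2 ratio of -1.44. Zfp346, a binder of double-stranded RNA, stood at 0.0206 FPKM in KO cells and 7.14 FPKM in WT cells. That rested on 1 KO read and 759 WT reads, a level 356-fold lower in KO cells with a wide counting interval of 63.7 to 14070. Zfp830, a member with 1 finger, stood at 0.497 FPKM in KO cells and 8.05 FPKM in WT cells, 15.2-fold lower in KO cells (10.9 to 21.9).

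Of the 87 members with at least 2 C2H2 fingers and no KRAB box, 20 rose (23.0%) and 23 fell (26.4%). These shares were near those of all measured genes, of which 21.3% rose and 23.6% fell. The class had a median log2 ratio of 0.06 and summed levels of 938 FPKM in KO cells and 870 FPKM in WT cells. Zfp784 (22.0 FPKM in KO cells, 0.762 FPKM in WT cells) rose 28.2-fold (20.7 to 39.2). Zfp341, whose human counterpart drives transcription of STAT3, rose 25.3-fold (18.2 to 36.3), with 16.3 FPKM in KO cells and 0.594 FPKM in WT cells. Zfp281, a repressor that associates with Nanog in embryonic stem cells, rose less, to 12.3 FPKM in KO cells against 4.49 FPKM in WT cells. Zfp410, known for its control of the remodeller gene Chd4, rose to 6.73 FPKM in KO cells against 2.20 FPKM in WT cells. Chd4 itself stood at 111 FPKM in KO cells and 102 FPKM in WT cells.

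The 2 highest ratios at a mean of at least 5 FPKM belong to rows with a shared locus. Zfp575 stood at 32.6 FPKM in KO cells and 0.347 FPKM in WT cells, a fold of 92.3 (61.2 to 146). Its locus overlaps Ethe1, which rose as well, with 79.2 FPKM in KO cells and 24.1 FPKM in WT cells. Zfp956 stood at 20.5 FPKM in KO cells and 0.139 FPKM in WT cells, and its locus overlaps Zfp783, which did not pass the rule with 3.38 FPKM in KO cells and 1.60 FPKM in WT cells. In all 14 members share a locus with another row, among them also Zfp653, at 72.4 FPKM in KO cells and 27.4 FPKM in WT cells, whose partner Ecsit fell to 29.4 FPKM in KO cells against 74.1 FPKM in WT cells.

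The lowest log2 ratio of the group, -4.08, was that of Zfp523, the mouse counterpart of human ZNF76 and the closest relative of Zfp143. Zfp523 (chromosome 17, 28177196 to 28205886) stood at 0.0969 FPKM in KO cells and 17.5 FPKM in WT cells, from 2 KO reads and 842 WT reads. That is 197-fold lower in KO cells, with an interval of 54.5 to 1632. Zfp143, which binds a long promoter motif in many housekeeping genes, stood at 1.93 FPKM in KO cells and 3.47 FPKM in WT cells, 1.77-fold lower in KO cells (1.41 to 2.23) and short of the size rule. Zfp553 stood at 0.164 FPKM in KO cells and 12.7 FPKM in WT cells, and Zfp574 at 0.0514 FPKM in KO cells and 10.6 FPKM in WT cells. All 3 deep falls rested on 4 KO reads or fewer each.

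Several members without a KRAB box are named for roles in lymphocytes or in chromatin complexes. Zfp335, needed for T cell maturation in mice, fell to 2.24 FPKM in KO cells against 5.59 FPKM in WT cells. Zfp217, a partner of the CoREST and CtBP corepressors, fell to 5.57 FPKM in KO cells against 13.3 FPKM in WT cells. Zfp64, whose human counterpart maintains transcription of MLL, fell to 4.65 FPKM in KO cells against 13.5 FPKM in WT cells. The level was 2.73-fold lower in KO cells for Zfp335 (2.15 to 3.52), 2.41-fold lower for Zfp217 (2.17 to 2.67) and 3.07-fold lower for Zfp64 (2.47 to 3.85). Others without a KRAB box did not pass the rule. Zfp318, which governs IgD expression in B cells, stood at 4.15 FPKM in KO cells and 4.45 FPKM in WT cells. Zfp91, a ubiquitin ligase for the NF-kappaB kinase NIK, stood at 16.4 FPKM in KO cells and 14.5 FPKM in WT cells. Zfp148, a binder of GC-rich promoters, stood at 4.73 FPKM in KO cells and 5.70 FPKM in WT cells. Zfp207, a spindle protein that loads Bub3 onto kinetochores, stood at 46.6 FPKM in KO cells and 63.9 FPKM in WT cells.

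**Figure D2:**
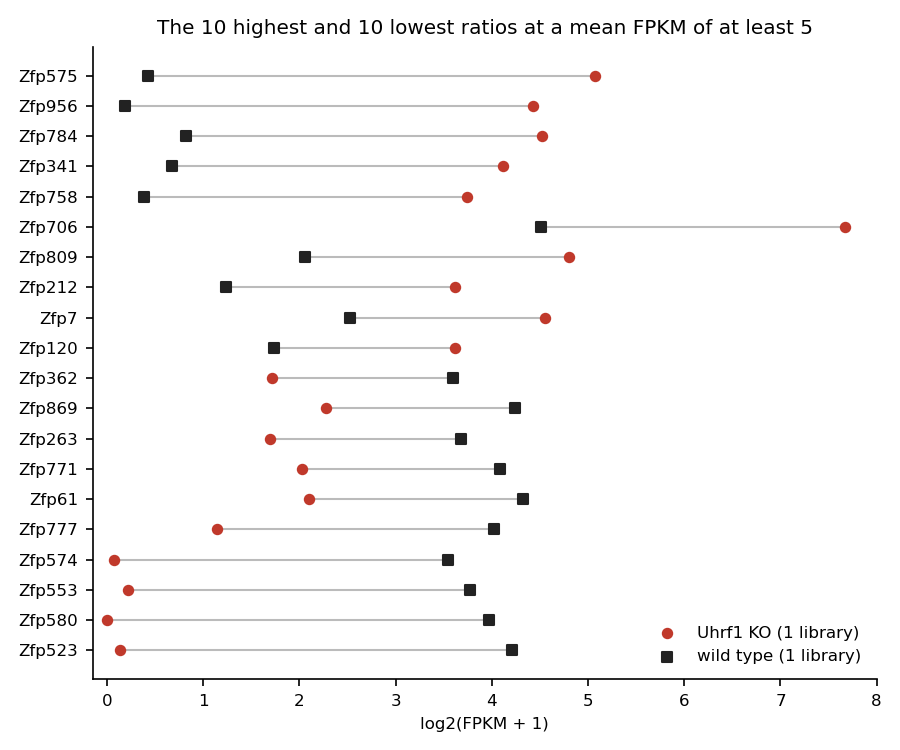
Levels, as log2(FPKM + 1), of the 10 members with the highest and the 10 with the lowest log2 ratio at a mean of at least 5 FPKM; red circles give KO cells and black squares WT cells, 1 library each, and the line between them is the difference. Zfp706 has the highest level among the rises in both KO and WT cells, and Zfp523, Zfp580, Zfp553 and Zfp574 lie near 0 in KO cells.

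The plot of the 20 most extreme ratios puts Zfp706 apart, since the other 9 rises stood at 4.74 FPKM or less in WT cells. Among the falls there, Zfp777 stood at 1.21 FPKM in KO cells and 15.3 FPKM in WT cells. Zfp61 stood at 3.29 FPKM in KO cells and 19.1 FPKM in WT cells, Zfp869 at 3.84 FPKM in KO cells and 17.9 FPKM in WT cells, and Zfp771 at 3.07 FPKM in KO cells and 16.0 FPKM in WT cells. Zfp263 stood at 2.24 FPKM in KO cells and 11.8 FPKM in WT cells, and Zfp362 at 2.28 FPKM in KO cells and 11.1 FPKM in WT cells. These 6 kept between 11 and 216 reads in KO cells.

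A KRAB box was found in 90 members, and these were fairly evenly split with a lean towards KO cells. It was read with a profile of the KRAB A box from the longest protein of each gene, and across the annotation 343 of 21582 proteins (1.59%) carried it. Of the 90 members 30 rose (33.3%) and 25 fell (27.8%), and the median log2 ratio was 0.32. Their summed level was 504 FPKM in KO cells and 338 FPKM in WT cells. They were lower than the other C2H2 members, with a median mean level of 2.87 FPKM against 6.11 FPKM, and carried more fingers, a median of 11.5 against 7. At a mean of at least 5 FPKM 9 of 21 KRAB members rose and 4 fell, where 20.3% of all genes at that level rose and 17.8% fell. Below that, at 1 to 5 FPKM, 21 of 69 rose (30.4%) and 21 fell (30.4%), where 23.5% of all genes rose and 37.6% fell. These differences were not tested.

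Among KRAB members with known targets, the picture was mixed. Zfp809, which silences murine leukaemia viruses by binding their proline tRNA primer site, rose 8.17-fold (6.82 to 9.83), with 26.9 FPKM in KO cells and 3.17 FPKM in WT cells. Zfp932, a repressor of endogenous retroviruses, fell 3.95-fold (2.99 to 5.29), with 1.17 FPKM in KO cells and 4.85 FPKM in WT cells. Zfp445, which protects imprinted genes, passed in neither direction, with 7.22 FPKM in KO cells and 5.61 FPKM in WT cells. Zfp57, the other imprint guardian, lies below the level rule: it had 0 reads in KO cells and 1 read in WT cells. Zfp746, a repressor of the gene for PGC-1alpha and a target of parkin, rose to 14.8 FPKM in KO cells against 6.45 FPKM in WT cells. Zfp110, a partner of the neurotrophin receptor p75, was close to equal at 5.66 FPKM in KO cells and 5.06 FPKM in WT cells.

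The KRAB member with the highest mean over both libraries, Zfp707, stood at 49.3 FPKM in KO cells and 32.2 FPKM in WT cells. Zfp688 rose to 57.4 FPKM in KO cells against 19.6 FPKM in WT cells, and Zfp1 rose to 29.4 FPKM in KO cells against 7.79 FPKM in WT cells. Zfp7 rose to 22.5 FPKM in KO cells against 4.74 FPKM in WT cells, a fold of 4.62 (4.06 to 5.28). Zfp758 rose 42.9-fold (32.3 to 58.2), with 12.4 FPKM in KO cells and 0.307 FPKM in WT cells.

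Near-identical copies make some of these counts uncertain. Words of 50 bases from each member's longest transcript were looked for in the transcripts of all other genes. Of 190 members compared 90 shared none, and 25 shared over 10% of their words. The highest shares were 96.3% for Zfp781, mainly with Gm3055, and 94.1% for Zfp433, mainly with Gm32687. Zfp932 shared 45.2%, mainly with its paralogue Gm15446, and Zfp808 shared 43.1%, mainly with Zfp934. The split of reads between such copies depends on the counting, so the values of these members are less certain than the rest.

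**Figure D3:**
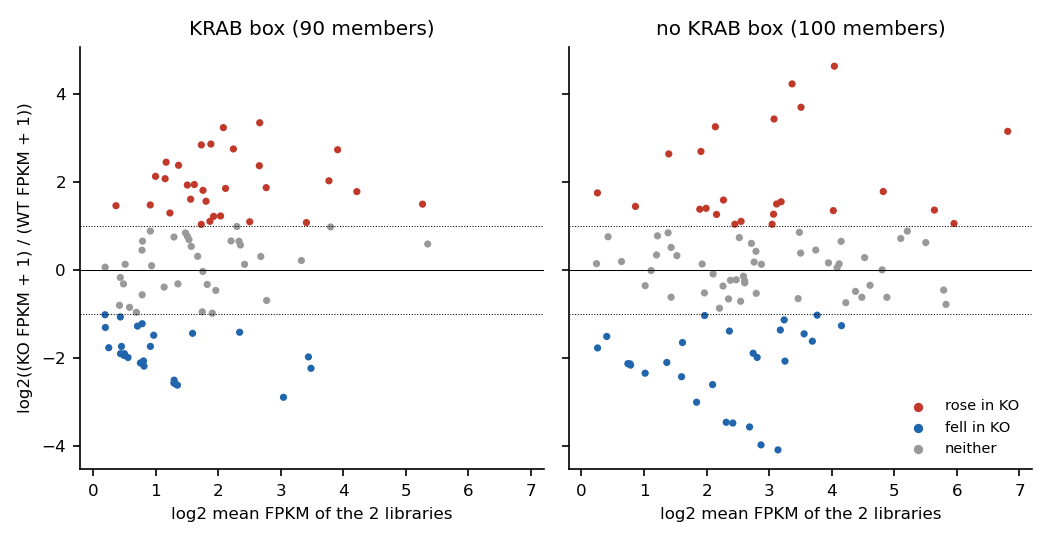
Log2 ratio of each member against log2 of its mean FPKM over both libraries, for 90 members with a KRAB box (left) and 100 members with a protein but no KRAB box (right); red points rose, blue points fell and grey points did neither, and the dotted lines mark the size rule. Both panels hold rises and falls, and 69 of the 90 KRAB members lie at a mean of 1 to 5 FPKM.

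The plot by KRAB box shows that both classes hold rises and falls. The highest and lowest ratios, 4.64 for Zfp575 and -4.08 for Zfp523, stand at means of 16.5 FPKM and 8.82 FPKM in the panel without a KRAB box. Zfp783, a member for which no protein was found, is in neither panel.

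RNA of Trim28 and Setdb1, whose proteins KRAB boxes act through, was found in both libraries. Trim28 stood at 155 FPKM in KO cells and 128 FPKM in WT cells. Setdb1 stood at 4.67 FPKM in KO cells and 3.26 FPKM in WT cells. A list of 25 genes of silencing, Trim28 and Setdb1 among them, was looked at, and all had a mean of at least 1 FPKM. In it 1 rose and 4 fell, where 21.3% of all measured genes rose and 23.6% fell. The median log2 ratio of the list was -0.02. Hdac2, a histone deacetylase, rose to 73.3 FPKM in KO cells against 29.2 FPKM in WT cells. The falls were Smarcad1, a remodeller that binds Trim28 (0.0673 FPKM in KO cells, 5.08 FPKM in WT cells), Atf7ip, the stabiliser of Setdb1 (3.90 FPKM in KO cells, 9.80 FPKM in WT cells), and the H3K9 methyltransferase genes Suv39h1 (4.41 FPKM in KO cells, 17.5 FPKM in WT cells) and Ehmt2 (31.8 FPKM in KO cells, 78.8 FPKM in WT cells). Dnmt1, the methyltransferase that Uhrf1 guides, stood at 43.6 FPKM in KO cells and 61.1 FPKM in WT cells.

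Some members were read in one genotype and not in the other. In KO cells 14 members (7.33%) had 0 reads, where 4.71% of all measured genes did. In WT cells 4 members (2.09%) had 0 reads, where 2.71% of all measured genes did. At 3 reads or fewer there were 21 members (11%) in KO cells and 6 (3.14%) in WT cells, where all genes gave 6.8% in KO cells and 3.51% in WT cells. These shares were not matched by level: 108 of the 191 members lay at 1 to 5 FPKM, beside 2943 of all 9955 measured genes. The KO library was also the shallower, with 12189849 reads on genes against 26005822 in the WT library. The part of level and depth in these shares was not tested.

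The 4 members at 0 in WT cells were Zfp112, Zfp438, Zfp286 and Zfp608. Folds against a library at 0 are lower bounds, set against a floor of 3 reads in that library. Zfp112, a KRAB member with 12 fingers, had 8.47 FPKM in KO cells from 401 reads and was at least 285-fold higher there. Zfp438 had 5.26 FPKM in KO cells and was at least 203-fold higher, and Zfp286 had 4.50 FPKM in KO cells and was at least 157-fold higher. Zfp608, which represses the recombinase genes Rag1 and Rag2 in mouse thymocytes, had 2.39 FPKM in KO cells and was at least 170-fold higher. Zfp609, its closest relative, stood just outside the level rule and was the other way round, with 0.00842 FPKM in KO cells from 1 read and 1.94 FPKM in WT cells from 500 reads.

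The 14 members at 0 in KO cells were Zfp580, Zfp821, Zfp251, Zfp954, Zfp94, Zfp691, Zfp867, Zfp41, Zfp536, Zfp59, Zfp456, Zfp606, Zfp3 and Zfp128. Their WT levels ran between 2.38 FPKM for Zfp128 and 14.6 FPKM for Zfp580, from 108 to 622 WT reads a gene. Zfp580 had 214 WT reads and was at least 33.4-fold lower in KO cells. Zfp821 had 9.94 FPKM in WT cells and was at least 59.7-fold lower in KO cells. Zfp606 had 2.71 FPKM in WT cells and, with 622 WT reads, was at least 97.2-fold lower in KO cells. Of these 14 genes 8 carry a KRAB box.

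The members lie on 20 chromosomes, and members that rose outnumbered those that fell on some of them and not on others. Chromosome 7 holds 50 of them, of which 12 rose and 16 fell with a median log2 ratio of -0.29, while 25% of all measured genes there rose and 25% fell. Chromosome 17 holds 21, of which 10 rose and 3 fell with a median of 0.89, while 23% of all genes there rose and 23.3% fell. On chromosome 9 4 of 9 rose and 0 fell, where 17.5% of all genes rose and 25.1% fell. On chromosome 5 2 of 11 rose and 6 fell, where 19.3% of all genes rose and 24.7% fell. The KRAB members of chromosomes 17 and 7 leaned opposite ways, a difference that was not tested. On chromosome 17 8 of 16 KRAB members rose and 2 fell, with sums of 76.6 FPKM in KO cells and 32.0 FPKM in WT cells. On chromosome 7 5 of 24 KRAB members rose and 10 fell, with sums of 111 FPKM in KO cells and 105 FPKM in WT cells. The members of chromosome 7 without a KRAB box had 7 rises and 6 falls among 26. Of the 9 KRAB members of chromosome 13, 3 rose and 2 fell, where 19.9% of all genes there rose and 25.5% fell. Of the 9 KRAB members of chromosome 8, 1 rose and 1 fell, where 19.9% of all genes there rose and 28.2% fell. Uhrf1 itself lies on chromosome 17, and any part of this in the values there was not tested.

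**Figure D4:**
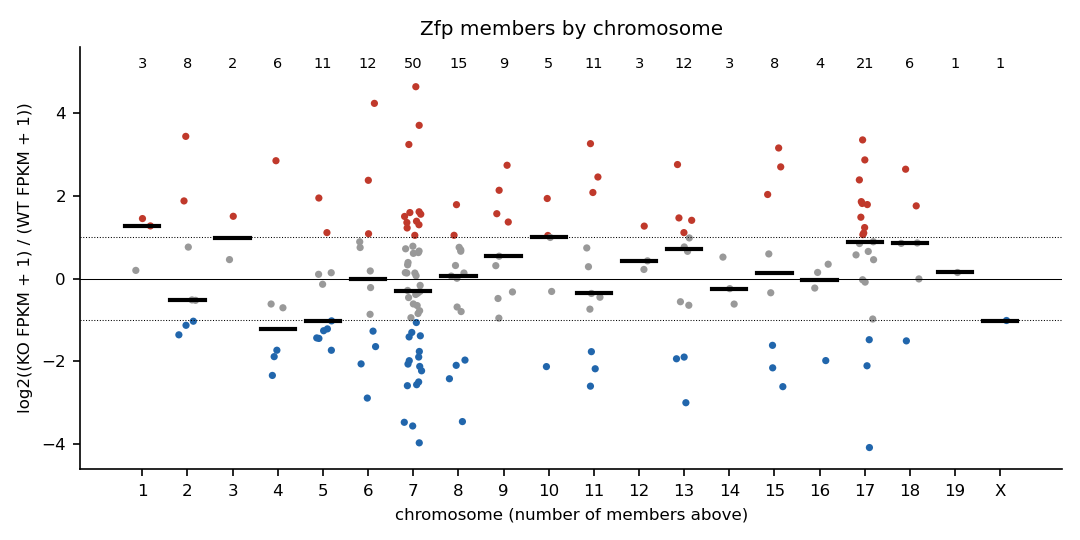
Log2 ratio of every member by chromosome, with the number of members above each column and the median as a black bar; red points rose, blue points fell and grey points did neither. The bar stands at 0.89 for the 21 members of chromosome 17 and at -0.29 for the 50 members of chromosome 7.

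The plot by chromosome also shows that the columns overlap widely, with members of chromosome 17 between -4.08 and 3.35 and those of chromosome 7 between -3.97 and 4.64. The lowest value on chromosome 17 is Zfp523, which lies outside its KRAB clusters.

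Most clusters of neighbouring members held rises beside falls. Members whose next member lay within 500 kb on the same chromosome were joined, which put 106 members in 25 clusters. Of the 16 clusters with at least 3 members, 11 held both rises and falls, 2 held rises without falls, 2 held falls without rises and 1 held neither. Over all members 28.3% rose and 27.2% fell, and how many mixed clusters these shares alone would give was not tested. Clusters of other genes were not counted, so the 11 are a description. The chromosome 17 cluster between 21383707 and 23564226 in GRCm38.p6 was the largest and leaned one way. Of its 12 members, 11 of them with a KRAB box, 7 rose and 1 fell, with a median log2 ratio of 1.36. Zfp758 and Zfp820 rose most, Zfp820 with 7.25 FPKM in KO cells and 0.128 FPKM in WT cells. Zfp51 stood at 5.01 FPKM in KO cells and 0.148 FPKM in WT cells, Zfp53 at 5.83 FPKM in KO cells and 0.936 FPKM in WT cells, and Zfp40 at 7.38 FPKM in KO cells and 1.30 FPKM in WT cells. Zfp942 and Zfp944 also rose, while Zfp677, Zfp52, Zfp943 and Zfp213 did neither. Within the same row of genes Zfp945 fell to 0.567 FPKM in KO cells against 3.35 FPKM in WT cells.

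The other clusters that leaned one way were small. On chromosome 9, between 22055411 and 22259895, Zfp653, Zfp809 and Zfp599 all rose, Zfp599 with 3.89 FPKM in KO cells and 0.111 FPKM in WT cells. The RefSeq spans of Zfp809 and Zfp599 overlap and Zfp653 shares its locus with Ecsit, so the caution on reads of overlapping genes holds here too. On chromosome 10 Zfp433 and Zfp873 rose while Zfp781 and Zfp938 did neither, Zfp938 by a narrow margin with 6.89 FPKM in KO cells and 2.95 FPKM in WT cells. Since Zfp433 shared 94.1% and Zfp781 96.3% of their words with other genes, the values of these 2 members are uncertain. On chromosome 8 Zfp869 fell while its neighbours Zfp930, Zfp868 and Zfp866 did neither, and on chromosome 18 Zfp35 fell to 0.213 FPKM in KO cells against 2.43 FPKM in WT cells while Zfp397 and Zfp191 did neither.

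In the mixed clusters, some genes side by side went opposite ways and others went the same way. In the chromosome 6 cluster (47835633 to 48445992) Zfp956, Zfp212 and Zfp746 rose, while Zfp777, Zfp282, Zfp467 and Zfp398 fell. Zfp212 stood at 11.3 FPKM in KO cells and 1.36 FPKM in WT cells, and Zfp282 at 0.0648 FPKM in KO cells and 3.43 FPKM in WT cells. In the chromosome 7 cluster between 24081877 and 25083492, Zfp112 and Zfp575 rose while Zfp94, Zfp61 and Zfp574 fell. Zfp94 had 0 reads in KO cells and 4.90 FPKM in WT cells. In the chromosome 13 cluster between 67363584 and 67683512, Zfp58 and Zfp738 rose while Zfp456 and Zfp429 fell. Zfp429 had 1 KO read and 232 WT reads, and Zfp456 had 0 KO reads and 580 WT reads. Of its words Zfp429 shared 25.3% with other genes, mainly Rsl1, and Zfp456 shared 16.5%, mainly with Zfp429. On the rising side Zfp58 shared 50.2%, mainly with Gm26965, and Zfp738 shared 9.12%, mainly with Zfp729b. The caution on near-identical copies thus holds for both directions here.

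Next neighbours were also counted in pairs. Of 80 pairs of neighbouring members within 500 kb, with 1 pair that shares a locus left out, both were called in 33, and in 10 of these 33 (30.3%) the direction was the same, with 6 pairs of rises and 4 pairs of falls. Among 8373 pairs of neighbouring measured genes, chosen the same way, both were called in 1727, and 899 of these (52.1%) had the same direction. Within 200 kb the share was 43.5% of 23 Zfp pairs and 52.7% of 1555 pairs of all kinds, and within 1000 kb it was 29.4% of 34 Zfp pairs and 51.4% of 1807 pairs of all kinds. The same direction was found in 10 Zfp pairs at each distance. Pairs in a row share genes, so these shares are descriptions.

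**Figure D5:**
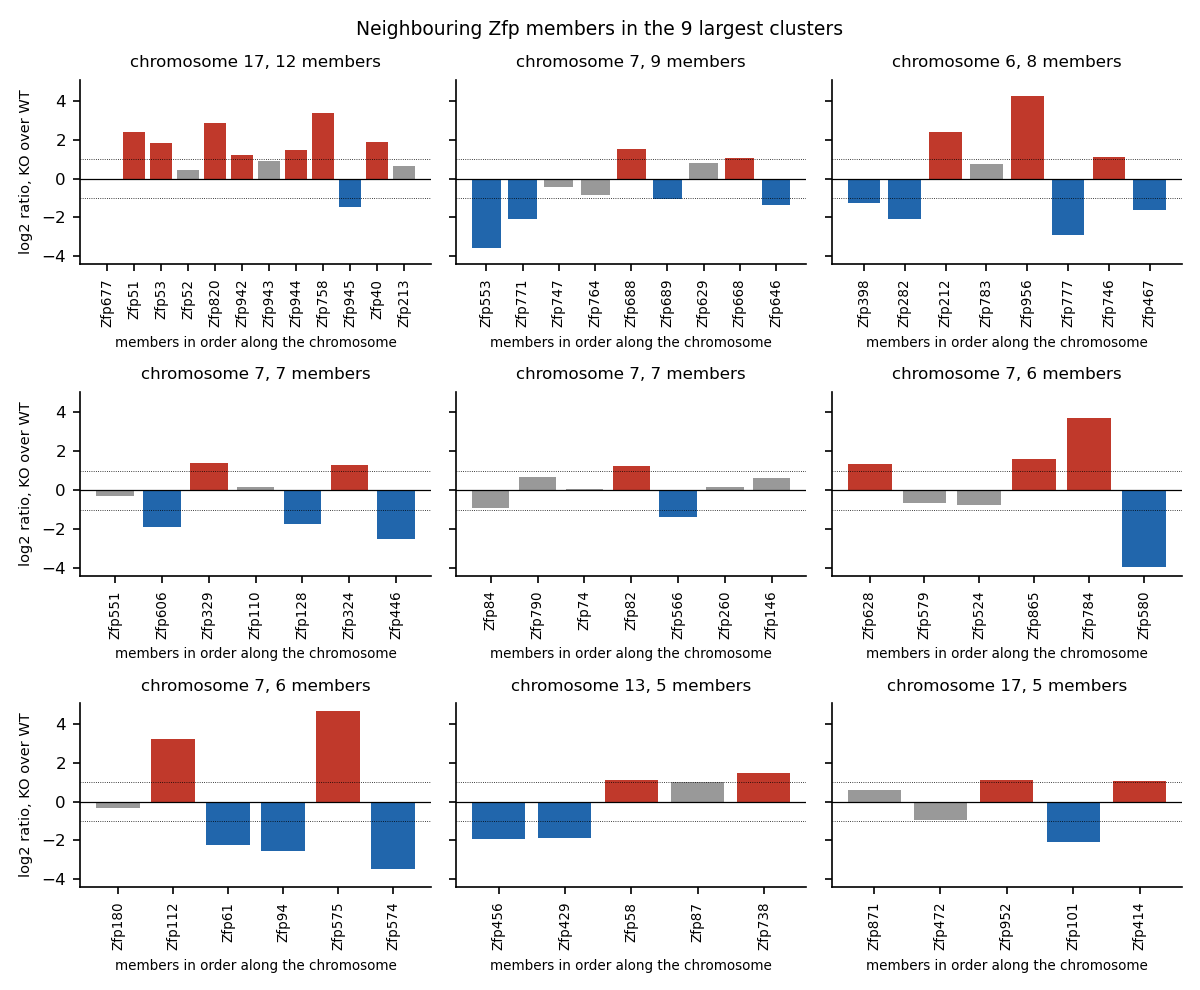
Log2 ratio (KO over WT) of members in their order along the chromosome, in the 9 largest clusters of members joined within 500 kb; red bars rose, blue bars fell, grey bars did neither, and dotted lines mark the size rule. The chromosome 17 cluster of 12 holds 7 rises and 1 fall, and all 9 panels hold both rises and falls.

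The plot of clusters shows the pattern gene by gene. A wide difference over a short distance was seen in the chromosome 7 cluster between 4915181 and 5053723, which spans 138.5 kb and whose 6 members carry no KRAB box. Zfp784 rose there, with 581 KO reads and 44 WT reads, and its neighbour Zfp580 had 0 KO reads and 214 WT reads. Zfp628 rose to 23.9 FPKM in KO cells against 8.70 FPKM in WT cells, and Zfp865 to 7.76 FPKM in KO cells against 1.89 FPKM in WT cells. Zfp524, the most abundant member in WT cells, stood at 41.6 FPKM in KO cells and 71.8 FPKM in WT cells and did not pass the rule. Zfp579 stood at 3.75 FPKM in KO cells and 6.45 FPKM in WT cells.

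CpG dinucleotides are the sites of the methylation that Uhrf1 maintains. The 250 bases before the RefSeq start sites of these opposite neighbours are therefore shown, with CpGs in capitals (RefSeq, GRCm38.p6; Zfp784 at chr7:5038447-5038696 on the minus strand, Zfp580 at chr7:5051282-5051531 on the plus strand):
Zfp784: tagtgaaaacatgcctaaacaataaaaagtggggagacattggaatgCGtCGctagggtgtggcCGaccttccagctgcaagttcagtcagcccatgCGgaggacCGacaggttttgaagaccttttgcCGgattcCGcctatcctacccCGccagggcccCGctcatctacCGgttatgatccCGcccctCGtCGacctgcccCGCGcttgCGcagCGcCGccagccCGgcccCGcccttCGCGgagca
Zfp580: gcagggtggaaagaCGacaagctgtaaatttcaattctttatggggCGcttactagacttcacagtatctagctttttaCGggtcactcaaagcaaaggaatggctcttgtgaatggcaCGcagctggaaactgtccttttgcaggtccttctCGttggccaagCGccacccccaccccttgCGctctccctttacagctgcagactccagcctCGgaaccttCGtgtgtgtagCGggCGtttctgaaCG
The Zfp784 stretch holds 22 CpGs, crowded towards the start site, and the Zfp580 stretch holds 12, more thinly spread. RefSeq also gives Zfp580 an outer start at 5038519, inside the Zfp784 stretch and on the opposite strand. The 12 CpGs hold for the inner start alone, and a window before the outer start was not counted. The contrast with Zfp784 thus depends on the start taken. Methylation was not analysed here.

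Over the group, the median CpG number was close in rises and falls. Promoter windows of 300 bases, 250 before and 50 after the start, were matched for 156 of the 191 members. For each gene 1 window was taken, the nearest to its outer RefSeq start. For some genes, Zfp580 and Zfp790 among them, that window stands at an inner start, and how many do was not counted. The windows of the 156 members held a median of 16 CpGs (range 3 to 54), beside 21 over 7980 measured genes and 7 over all 27025 promoters. The median was 16 for the 41 members that rose, 18 for the 42 that fell and 16 for the 73 in neither group. KRAB members had a median of 12 and members without a KRAB box 20.

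A promoter motif of Zfp143 was found among the members. A core of 11 bases of the site that Zfp143 binds, 2 of which may be any base, was searched on both strands, and its matches stand in capitals in the windows printed with it. This core was present in 22 of 156 member promoters (14.1%), in 5.03% of the promoters of measured genes and in 2.14% of all promoters. KRAB members held it in 15 of 78 promoters (19.2%) and members without a KRAB box in 7 of 77 (9.09%). Of the 22 genes 4 rose, 7 fell and 11 did neither, where of all 156 members with a window 41 rose and 42 fell. The median log2 ratio was -0.36 with the motif and 0.16 without it, a difference that was not tested. The 22 include the neighbours Zfp429 and Zfp456, whose stretches printed below are nearly the same letters, so they are not all separate instances. The motif was thus found in promoters of either direction. None of its 25 matches overlapped any of the other motifs searched, and 24 lay before the start site.

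The motif and its surroundings are shown for KRAB members that rose (Zfp1, Zfp58, Zfp738) and fell (Zfp128, Zfp429, Zfp456, Zfp606, Zfp94), read on the strand of the motif with the 11 matched bases in capitals (RefSeq, GRCm38.p6; Zfp1 at chr8:111643403-111643442 on the minus strand, Zfp58 at chr13:67500527-67500567, Zfp738 at chr13:67683542-67683582, Zfp128 at chr7:12881148-12881177 on the minus strand, Zfp429 at chr13:67399812-67399852, Zfp456 at chr13:67375806-67375846, Zfp606 at chr7:12478266-12478304 and Zfp94 at chr7:24316798-24316838, on the plus strand where none is named):
Zfp1: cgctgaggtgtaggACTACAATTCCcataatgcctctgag
Zfp58: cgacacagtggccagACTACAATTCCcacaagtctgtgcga
Zfp738: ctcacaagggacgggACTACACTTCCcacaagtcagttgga
Zfp128: tgagACTACAATTCCcagaaggccacgcgc
Zfp429: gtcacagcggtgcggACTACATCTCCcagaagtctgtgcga
Zfp456: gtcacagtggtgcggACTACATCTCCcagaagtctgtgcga
Zfp606: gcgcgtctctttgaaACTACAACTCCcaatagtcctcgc
Zfp94: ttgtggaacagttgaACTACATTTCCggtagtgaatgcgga
The chromosome 13 neighbours Zfp58, Zfp738, Zfp429 and Zfp456 carry the motif at like distances before the start, between -65 and -25 bases, and went in both directions. The caution on near-identical copies given above for these genes holds here too. Zfp1 stood at 29.4 FPKM in KO cells and 7.79 FPKM in WT cells, and Zfp606 at 0 FPKM in KO cells and 2.71 FPKM in WT cells, with the motif at -20 and -19 bases.

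Zfp112, the member with the highest bound among those at 0 in WT cells, had the most matches. Its promoter holds 3, at -143, -49 and 39 bases from the start site. Its 250 bases before the start (chr7:24112070-24112319, plus strand, GRCm38.p6, RefSeq) are shown with the matches in capitals; they lie on the opposite strand, so the letters read GGAAATGTAGT:
Zfp112: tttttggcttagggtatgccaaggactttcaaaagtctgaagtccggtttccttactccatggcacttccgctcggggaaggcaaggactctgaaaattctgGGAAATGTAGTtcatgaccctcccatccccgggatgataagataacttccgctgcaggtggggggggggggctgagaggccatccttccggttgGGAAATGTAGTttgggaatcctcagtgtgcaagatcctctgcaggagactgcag
The stretch holds 6 CpGs. A match is a description of letters and not a measured site.

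The other 6 motifs were also searched on both strands. The YY1 letters AANATGGC were in 17.9% of member promoters, 9.82% of measured ones and 6.2% of all promoters. The NRF1 motif, given here by name alone, was in 4.49% of member promoters, 2.26% of measured ones and 0.981% of all. The ETS core CCGGAAG was in 23.7% of member promoters, 20.7% of measured ones and 9.14% of all. The GC box GGGCGG was in 54.5% of member promoters, 64.8% of measured ones and 35.9% of all. The E box CACGTG was in 8.97%, 10.5% and 7.24%, and TATAAA in 5.77%, 7.16% and 14.2%, of the same 3 sets.

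Other families of zinc finger genes in the same libraries had shares called on either side of that of the Zfp members, which was 55.5%. Of all measured genes 44.9% were called. The other families are small and were not matched by level, so their shares are descriptions. Among Zbtb genes, which join fingers to a BTB domain, 4 of 28 rose and 8 fell (42.9% called). Among Zscan and Zkscan genes, which carry a SCAN domain, 3 of 11 rose and 4 fell (63.6%). Zfp genes with a suffix after the number, left out by the name rule, had 1 rise and 6 falls among 13 (53.8%). Among Zfhx, Zfx, Zeb, Klf and Sp genes 5 of 19 rose and 3 fell (42.1%).

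The remaining 130 Zfp genes lay below the level rule. Of these 34 had 0 FPKM in both libraries, and the median mean level of the 130 was 0.0795 FPKM. The members just inside the rule were Zfp182 (0.423 FPKM in KO cells, 1.86 FPKM in WT cells), Zfp74 (1.20 FPKM in KO cells, 1.09 FPKM in WT cells) and Zfp658 (0.241 FPKM in KO cells, 2.05 FPKM in WT cells). Just outside it lay Zfp609, with the values above, Zfp558 (0.806 FPKM in KO cells, 1.09 FPKM in WT cells) and Zfp788 (0.672 FPKM in KO cells, 1.20 FPKM in WT cells). For Zfp672 the 2 deposited measures went opposite ways: 25.4 FPKM in KO cells against 20.6 FPKM in WT cells, but a scaled-count fold of 0.689 (0.575 to 0.822).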

How the data were processed

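Antibody-stained iNKT cells were sorted (Aria II), RNA was taken up in Trizol and TruSeq RNA libraries were made, per the labels' protocols. Per the submitters' processing notes the build was mm10 and the tools included Cufflinks 2.1.1 and TopHat2 2.0.9; what each did, and with which annotation, strand setting and filters, is not given in the sources used here. The authors deposited an FPKM value for each gene, per the file headers. The second deposited column, headed as a count, holds a scaled signal: its values are whole multiples of 1.71 in KO cells and 0.799 in WT cells, and dividing by these steps gave whole reads, within 0.01 read, for 98.8% of nonzero genes in KO cells and 98.2% in WT cells. No count model was fitted.

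The measure was the log2 ratio with a pseudocount of 1, which understates the change of low genes. Intervals are 95% Clopper-Pearson intervals, with a floor of 3 reads for libraries at 0. Coordinates come from RefSeq (GRCm38.p6), matched by Entrez identifier for 191 of 191 members. KRAB boxes were found with HMMER 3.4 (a profile from 149 windows of 39 residues, E value of at most 1e-05) in GENCODE M21 proteins, which were found for 190 members, and C2H2 fingers by pattern. Steps were tested on simulated data. Software was scipy 1.17.1, pandas 2.3.3, biopython 1.88, numpy 2.4.6 and matplotlib 3.10.9 under Python 3.11.15.

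Genes were named by rule: the 10 highest and 10 lowest ratios at a mean of at least 5 FPKM, the 6 highest levels, members at 0 reads in 1 library, the 3 on each side of the level rule, members of clusters of 3 or more, and a set with known roles. Zfp1 and Zfp750 were named, and the promoters to print were chosen, after their values were seen. The members and lists were chosen with earlier results of these data known. Alternatives in pseudocount, filter, scaling, measure, locus, reads, size rule and cluster distance are given with the closing remarks. Single values of a few marker genes are not reported here.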

Additional observations from a re-analysis of the deposited data

How the results depend on the processing

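The counts of 54 rises and 52 falls moved by less than 1.5 times with a pseudocount of 0.1, no filter, each of the 3 rescalings, the scaled counts, a size rule of 0.5 or without members that share a locus. They were 24 rises and 18 falls with a pseudocount of 5, which lost 64 of 106 calls, 24 and 18 at a mean of at least 5 FPKM, and 20 and 23 under a size rule of 2. Without the members at 10 or fewer reads in a library 47 rises and 28 falls were left; a deep fall is by itself a gene with few KO reads, so this filter removes falls by construction. Members in clusters numbered 106 within 500 kb, 91 within 200 kb and 115 within 1000 kb. The median log2 ratio of Zfp members, 0.14, was 0.16 with a pseudocount of 0.1, 0.0786 with a pseudocount of 5, 0 with no filter, 0.19 at a mean of at least 5 FPKM, 0.14 on rescaling to a median of 0, -0.0164 on the upper quartile, 0.135 on the sum without the 50 most abundant genes, 0.17 on the scaled counts, 0.11 without members that share a locus and 0.30 without members at 10 or fewer reads. KRAB members numbered 9 rises and 4 falls at a mean of at least 5 FPKM, against 30 and 25. This filter on KRAB members was chosen after seeing the data, as were the search for a KRAB box in any protein of a gene, a shorter motif and other neighbour distances. No called member reversed. Under the upper quartile 98 of 106 calls were kept and 3 were gained. The cause of these changes was not tested beyond the filters' own construction. No paired analysis was possible because there is 1 library per genotype, and for the same reason no replicate could be left out.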
